A study of Mus musculus with 12 samples.

Results

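Transcripts of 8 genes of mitochondrial calcium handling were examined in the ventricles of mice carrying human phospholamban: Mcu, Mcub, Micu2, Smdt1, Mcur1, Slc8b1, Letm1 and Vdac1. Their rows were taken by gene symbol, and the genes were chosen with earlier results of these data known. All 8 were found in every sample among 33641 genes listed, of which 22948 were above 0 in at least 1 sample, and all 8 were among the 12526 that reached a mean TPM of 0.5 and were tested. TPM corrects reads for transcript length and gives each gene as a share of all transcripts in a sample, so levels of different genes can be set side by side.

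RNA was sequenced from whole left (LV) and right (RV) ventricles of WT-PLN and R14del-PLN mice, with 3 samples in each of the 4 groups and 12 samples in all. In both lines the mouse Pln coding sequence was replaced by the human one through gene targeting, so the WT-PLN controls are knock-in animals too. The R14del-PLN animals carry the human sequence lacking arginine 14 on 1 allele and human WT-PLN on the other, and the sample titles call them KO although no gene was deleted. The labels give strain C57BL/6J and an age of 12 to 14 weeks, and the study describes male mice of a hybrid line bred from 129/Sv-CP and C57Bl/6J chimeras with Sox2-Cre. Whole ventricle holds several cell types, and in such bulk samples fewer cells of a type and less RNA per cell cannot be told apart.

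The uniporter is a channel of the inner mitochondrial membrane that lets calcium into the matrix, driven by the membrane potential. MCU forms the pore, MCUb is a paralogue that lowers conductance when it takes the place of MCU subunits, EMRE (encoded by Smdt1) is needed for the channel to open, and MICU2 helps to keep it closed at low cytosolic calcium. MCUR1 is a further regulator of uptake, NCLX (Slc8b1) returns calcium in exchange for sodium, LETM1 is a cation/proton exchanger of the inner membrane, and VDAC1 is the pore of the outer membrane through which calcium reaches it. In cardiomyocytes matrix calcium raises the activity of dehydrogenases that feed respiration, and mitochondria lie close to the calcium release sites of the sarcoplasmic reticulum, where phospholamban restrains the calcium pump.

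The pore gene and its paralogue lie on different chromosomes, Mcu on chr10:59446984-59616692 and Mcub on chr3:129914960-129970206 (GRCm38, both on the minus strand). Mcu lies 6.1 Mb from Pln, the altered gene, which was at 1559 to 1963 TPM across the 12 samples. The promoters of this pair are shown because they are the pore-forming paralogues and 1 of them differed most between the genotypes. RefSeq sequences of GRCm38.p6 run from 250 bases before to 50 bases after the start of each gene, at chr10:59616643-59616942 for Mcu and chr3:129970157-129970456 for Mcub, 5′ to 3′ on the minus strand, with CG dinucleotides in capitals.
Mcu: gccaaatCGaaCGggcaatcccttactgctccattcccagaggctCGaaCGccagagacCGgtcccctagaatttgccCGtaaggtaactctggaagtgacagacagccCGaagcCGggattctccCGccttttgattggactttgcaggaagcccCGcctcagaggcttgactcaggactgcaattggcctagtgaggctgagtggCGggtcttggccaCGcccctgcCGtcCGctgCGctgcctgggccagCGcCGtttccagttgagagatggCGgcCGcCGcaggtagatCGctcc
Mcub: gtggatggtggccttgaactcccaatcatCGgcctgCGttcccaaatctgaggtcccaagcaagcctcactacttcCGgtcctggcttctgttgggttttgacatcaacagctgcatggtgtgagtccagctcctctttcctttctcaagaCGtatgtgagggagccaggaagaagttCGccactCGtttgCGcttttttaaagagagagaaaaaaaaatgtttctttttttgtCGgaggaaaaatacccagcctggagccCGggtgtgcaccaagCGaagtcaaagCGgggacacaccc
The Mcu window held 21 CG dinucleotides and the Mcub window 11, against a median of 7 over the 32851 promoters of the table. Promoters were matched for 7 of the 8 genes. Of the motifs searched on both strands, CCAAT was found in the windows of Mcu, Mcub and Letm1 and in 37.4% of all promoters, and TGACGTCA was found in that of Smdt1 and in 1.79% of all. TATAAA, present in 13.6% of all promoters, and CACGTG, present in 7.15%, were in none of the members' windows. These matches describe the letters of the windows and nothing was measured at the promoters here.

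The deposited values sum to the same total in every sample and keep no record of sequencing depth. Mitochondrially encoded transcripts took 37.3% of all TPM in LV R14del-PLN replicate 3 and 44.0% to 54.5% in the other samples. The Y-linked genes Ddx3y, Eif2s3y, Kdm5d and Uty summed to 0.25 and 0.284 TPM in RV and LV of WT-PLN replicate 1, and to 43.5 to 63.6 TPM in the other 10 samples. The low sums do not match the study's description of male mice. They occurred in controls only, so if these samples are female, sex was not balanced between the genotypes. RV R14del-PLN replicate 3 came from sequencing run 143 and the other samples from run 136, as the names of the deposited tables give it. The 6 ventricular cardiomyocyte markers summed to 32104 to 48981 TPM, and the 5 atrial markers to between 45.6 and 1296 TPM, the highest in LV WT-PLN replicate 3. Where leaving out 1 sample moved a genotype difference of Mcub, Smdt1 or Slc8b1 across the threshold or, in LV, by over 1.5 times, its value without that sample is given beside it.

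The 8 genes covered a wide range of levels, and their order was the same in 12 of 12 samples. Vdac1 had a mean of 541 TPM over the 12 samples and ranked 117 of 12526 tested genes. Smdt1 followed at 102 TPM, then Micu2 at 37.7, Letm1 at 25.2 and Mcur1 at 11.7 TPM. The pore gene Mcu was at 5.34 TPM, near the middle of the tested genes (rank 6617), Slc8b1 at 2.28 TPM and Mcub at 0.845 TPM (rank 11585). Between neighbours in this order the ranges over the 12 samples overlapped for Slc8b1 (1.64 to 3.85 TPM) and Mcub (0.348 to 2.04 TPM) only.

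**Figure D1:**
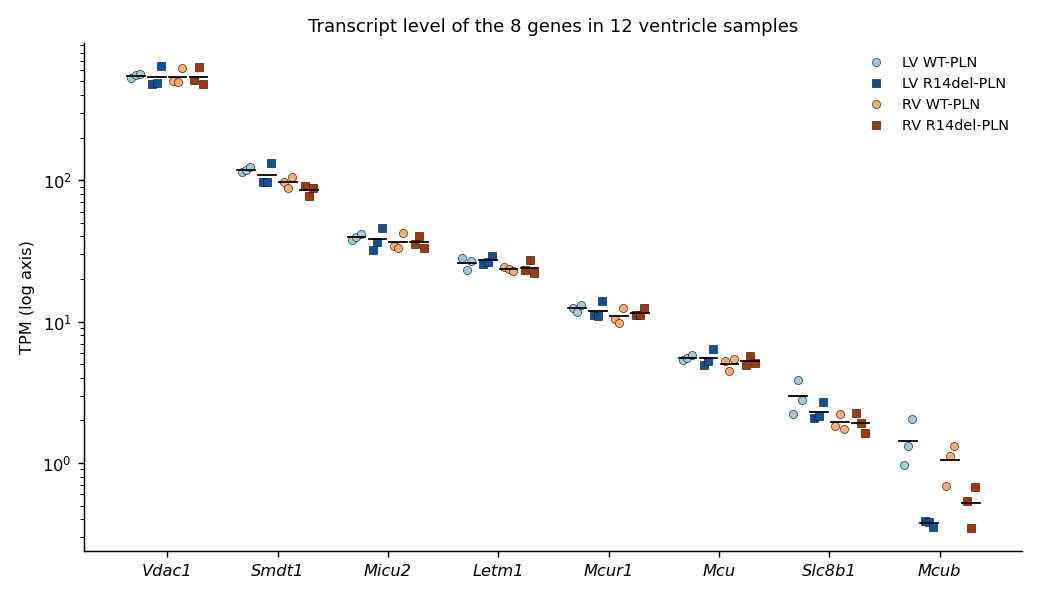
TPM of the 8 genes on a log axis, with 1 point per sample, colours for the 4 groups and a bar at each group mean (n = 3). The genes keep 1 order from Vdac1 at 476 to 645 TPM down to Mcub at 0.348 to 2.04 TPM. The genotypes do not overlap in Mcub, but in RV the nearest samples are at 0.680 and 0.691 TPM.

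The first question was whether any of these transcripts differed between R14del-PLN and WT-PLN in either ventricle. Differences were fitted with limma on log2(TPM + 1), and a call needed both a p of 0.05 or less after Benjamini-Hochberg adjustment and a 1.5-fold difference. In LV 0 of the 8 genes were called, against 65 of 12526 tested genes (0.519%), and in RV 0 of the 8 were called, against 34 of 12526 (0.271%). At an unadjusted p of at most 0.05, 1 of the 8 was lower in each ventricle, beside 1203 tested genes in LV and 779 in RV, and it was Mcub both times.

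The level of Mcu itself overlapped between all 4 groups. It was 5.33, 5.49 and 5.80 TPM in LV WT-PLN, 4.92, 5.24 and 6.36 TPM in LV R14del-PLN, 5.25, 4.48 and 5.40 TPM in RV WT-PLN, and 4.97, 5.75 and 5.09 TPM in RV R14del-PLN. The ranges of the genotypes overlapped in both ventricles. In log2(TPM + 1) the R14del-PLN minus WT-PLN difference was -0.01 in LV (fold 0.991, 95% interval 0.824 to 1.19) and 0.05 in RV (fold 1.04, 0.863 to 1.25), with limma adjusted p of 0.984 and 1.

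Mcub, the paralogue that dampens the channel, had the largest genotype difference of the 8. In LV it was 0.967, 1.31 and 2.04 TPM in WT-PLN samples and 0.388, 0.385 and 0.354 TPM in R14del-PLN samples, means of 1.44 ± 0.547 and 0.376 ± 0.0186 TPM (SD, n = 3 each). All 3 mutant samples lay below all 3 controls, the ratio of the means was 3.83-fold lower, and the spread among the controls was far wider than among the mutants. In RV it was 0.691, 1.13 and 1.31 TPM in WT-PLN and 0.539, 0.348 and 0.680 TPM in R14del-PLN, means of 1.04 ± 0.319 and 0.522 ± 0.166 TPM. These ranges did not overlap either, but the highest mutant and the lowest control sample were 0.680 and 0.691 TPM. Ranges that do not overlap were found for 11.0% of tested genes in LV and 11.0% in RV, in either direction.

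In the fit, Mcub differed by -0.80 in log2(TPM + 1) in LV (standard error 0.17, fold 0.573, 95% interval 0.447 to 0.734). Its unadjusted p was 0.000309 and its limma adjusted p 0.0561, so it missed the threshold and was not called. In RV the difference was -0.42 (standard error 0.17, fold 0.748, 0.584 to 0.959), with a limma adjusted p of 0.666. Mcub is low, and at about 1 TPM the added 1 in log2(TPM + 1) shrinks its fold change. The interaction, which compares the genotype difference of RV with that of LV, was 0.38 (unadjusted p = 0.125, limma adjusted p = 1.0), and 0 of 12526 genes (0.0%) were called in it, with 127 at an unadjusted p of at most 0.05.

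The call of Mcub in LV turned on the processing. It was called with a pseudocount of 0.1 TPM (log2 difference -1.64, limma adjusted p = 0.0427), after quantile normalization (adjusted p = 0.0264) and after mitochondrially encoded genes were removed and the values rescaled (log2 difference -1.06, adjusted p = 0.0418). Without LV WT-PLN replicate 1, the sample with few Y-linked transcripts, it was called at an adjusted p of 0.0212, and at 0.00861 without both WT-PLN replicate 1 samples. Without LV WT-PLN replicate 3, its highest sample, the difference was -0.63 and the adjusted p 0.202. Leaving out any of the other 4 LV samples gave adjusted p of 0.122 to 0.189, and no filter on low values gave 0.137. With both LV replicate 3 samples removed the difference was smallest, at -0.62, with an adjusted p of 0.307. The direction was negative in 14 of 14 alternatives that kept the gene, 6 of which called it. In RV it was lower in 14 of 14 and called in 0, and without RV R14del-PLN replicate 3, the sample of the other sequencing run, the difference was -0.49 (limma adjusted p = 0.723). After mitochondrially encoded genes were removed the RV ranges overlapped, with a highest mutant sample at 1.5 and a lowest control at 1.46 TPM.

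**Figure D2:**
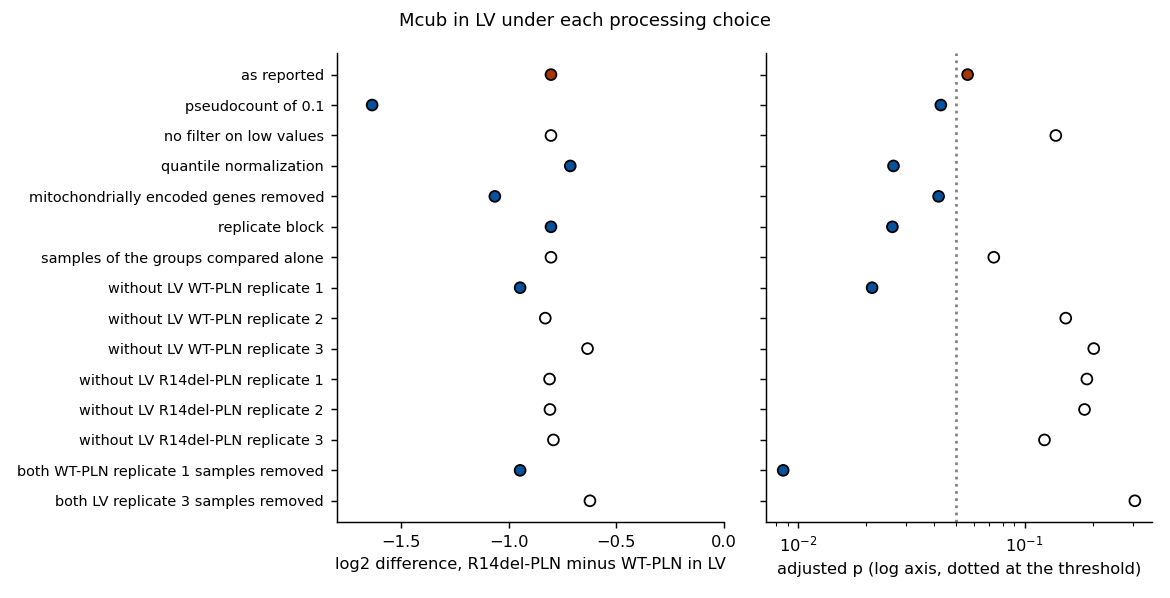
Mcub in LV under each processing choice, with the log2 difference of R14del-PLN minus WT-PLN on the left and the adjusted p on a log axis on the right. The value as reported is orange, alternatives at or below the threshold of 0.05 are blue and those above it white, and all differences lie between -1.64 and -0.62.

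The levels of cell type markers are set beside those of Mcub here, and their part in its difference was not tested. The 4 red cell markers summed to 1417 to 1575 TPM in LV WT-PLN and 728 to 1351 TPM in LV R14del-PLN, and to 975 to 1196 and 650 to 855 TPM in RV, without overlap in either ventricle. The 5 macrophage markers summed to 49.0 to 69.6 TPM in LV WT-PLN and 48.4 to 57.6 TPM in LV R14del-PLN, and to 44.1 to 54.1 and 37.4 to 61.9 TPM in RV, with overlap in both. Within that list Cd163, a haemoglobin scavenger receptor of macrophages, was 5.23 to 7.45 TPM in LV WT-PLN and 2.82 to 4.25 TPM in LV R14del-PLN, a log2 difference of -0.75 with a limma adjusted p of 0.145. In RV it was 6.56 to 7.96 TPM in WT-PLN and 2.5 to 4.54 TPM in R14del-PLN, a log2 difference of -0.81 with a limma adjusted p of 0.135. The Cd163 ranges did not overlap in either ventricle, as was the case for 11.0% of tested genes in each. Cd163 had the lowest log2 difference of the 5 macrophage markers in both ventricles. The highest of the list was 0.06 in LV and 0.03 in RV, with medians of -0.17 and -0.03. The 5 endothelial markers summed to 85.0 to 115 TPM in LV WT-PLN and 85.7 to 114 TPM in LV R14del-PLN, and to 64.1 to 79.0 and 71.7 to 99.2 TPM in RV. Members of that list lay on both sides of 0. Kdr, a receptor of vascular endothelial growth factor, had log2 differences of 0.47 in LV and 0.56 in RV (limma adjusted p = 0.468 and 0.558), and Cldn5, a tight junction gene, -0.48 and -0.34 (limma adjusted p = 0.607 and 1.0).

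The single LV WT-PLN sample with the highest Mcub also stood high in other lists. In LV WT-PLN replicate 3 a list of 8 blood leukocyte markers summed to 14.7 TPM, against 2.05 and 4.74 TPM in the other LV WT-PLN samples and 1.85 to 2.66 TPM in LV R14del-PLN. Its 4 smooth muscle markers summed to 259 TPM, against 43.2 to 84.6 TPM in LV R14del-PLN samples. Most of the leukocyte sum came from S100a9 at 7.12 TPM and S100a8 at 4.53 TPM, which neutrophils express.

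Genes beside Mcub on chromosome 3 were compared as well, since the mice derive from a mixed 129/Sv-CP and C57Bl/6J line. Of 11 tested genes starting within 2 Mb of Mcub, 5 had an unadjusted p of at most 0.05 in LV, and 2 of them were called. These were Enpep, an aminopeptidase gene that was higher in R14del-PLN (log2 difference 1.09, limma adjusted p = 0.0464), and Rpl34, a ribosomal protein gene that was lower (log2 difference -2.96, limma adjusted p = 3.74e-08). The annotation holds 16 other genes whose transcripts match Rpl34 over at least 300 bases at 82.2% to 99.4% identity, so its value is uncertain. In RV 3 of the 11 had an unadjusted p of at most 0.05 and 1, Rpl34, was called (log2 difference -3.12, limma adjusted p = 1.89e-08). Besides Rpl34 these were Enpep at 0.93 and Pla2g12a at -0.31 (limma adjusted p = 0.124 and 0.716). In LV Pla2g12a was at -0.41 (limma adjusted p = 0.267). Around Mcu, 1 of 26 such genes was called in each ventricle, Ddit4, a stress-responsive inhibitor of mTORC1, with log2 differences of -1.56 in LV and -1.42 in RV (limma adjusted p = 0.0170 and 0.0372). Of the 26 neighbours of Mcu, 5 had an unadjusted p of at most 0.05 in LV and 3 in RV. Genome-wide, 9.60% of the 12526 genes reached that p in LV and 6.22% did so in RV. Calls made up 0.519% and 0.271% in the same order. Whether the neighbours exceeded these shares was not tested. A local difference between the lines was not tested either, since the deposited values hold no sequence.

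The transcripts of the pore's regulators overlapped between the genotypes. Micu2, a gatekeeper subunit, was 37.5, 39.4 and 41.7 TPM in LV WT-PLN, 32.0, 36.7 and 46.2 TPM in LV R14del-PLN, 34.5, 33.2 and 42.2 TPM in RV WT-PLN, and 35.3, 40.4 and 33.1 TPM in RV R14del-PLN. The mutant samples spanned a wider range than the controls in LV and lay within the range of the controls but for the lowest sample in RV. The folds of R14del-PLN over WT-PLN were 0.960 in LV (95% interval 0.771 to 1.19) and 0.993 in RV (0.797 to 1.24).

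Smdt1, the gene of EMRE, was 114, 117 and 125 TPM in LV WT-PLN and 96.5, 97.0 and 132 TPM in LV R14del-PLN. It was 96.6, 88.8 and 105 TPM in RV WT-PLN and 91.5, 76.8 and 87.6 TPM in RV R14del-PLN. The high LV R14del-PLN value came from replicate 3, the sample with the lowest mitochondrially encoded share, and the overlap of the genotypes in LV rested on it alone. The RV ranges overlapped as well. The log2 difference was -0.15 in LV and -0.18 in RV (folds 0.904 and 0.883, 95% intervals 0.738 to 1.11 and 0.721 to 1.08). Without LV R14del-PLN replicate 3 the LV difference was -0.29 (limma adjusted p = 0.219), and without replicate 1 or 2 of that group it was -0.07. After mitochondrially encoded genes were removed and the values rescaled, Smdt1 was 214, 223 and 223 TPM in LV WT-PLN and 198, 195 and 210 TPM in LV R14del-PLN, without overlap. Before rescaling, 11.0% of tested genes had such ranges in LV, and the share after rescaling was not counted.

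Mcur1 ranged from 11.7 to 13.2 TPM in LV WT-PLN, 10.9 to 13.9 in LV R14del-PLN, 9.80 to 12.5 in RV WT-PLN and 11.1 to 12.4 TPM in RV R14del-PLN. Its genotype folds were 0.961 in LV and 1.06 in RV. Slc8b1, which carries calcium out of the matrix, was 2.22, 3.85 and 2.79 TPM in LV WT-PLN and 2.08, 2.16 and 2.71 TPM in LV R14del-PLN, with 1 control sample well above the rest. Its genotype fold was 0.847 in LV (log2 difference -0.24, 95% interval of the fold 0.670 to 1.07) and 0.999 in RV (0.789 to 1.26). The log2 difference in LV was -0.08 without LV WT-PLN replicate 2, the high control sample, and -0.38 without replicate 1 of that group (limma adjusted p = 0.986 and 0.295). Letm1 was 23.3 to 28.2 TPM in LV WT-PLN, 25.7 to 29.3 in LV R14del-PLN, 23.0 to 24.3 in RV WT-PLN and 22.1 to 27.2 TPM in RV R14del-PLN, with genotype folds of 1.04 and 1.02. Vdac1 was 532 to 563, 476 to 645, 498 to 619 and 478 to 630 TPM in the same order of groups, with folds of 0.968 and 0.995. The genotypes overlapped in both ventricles for each of these 4 genes, and the limma adjusted p of the 7 genes other than Mcub were at least 0.697 in LV.

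**Figure D3:**
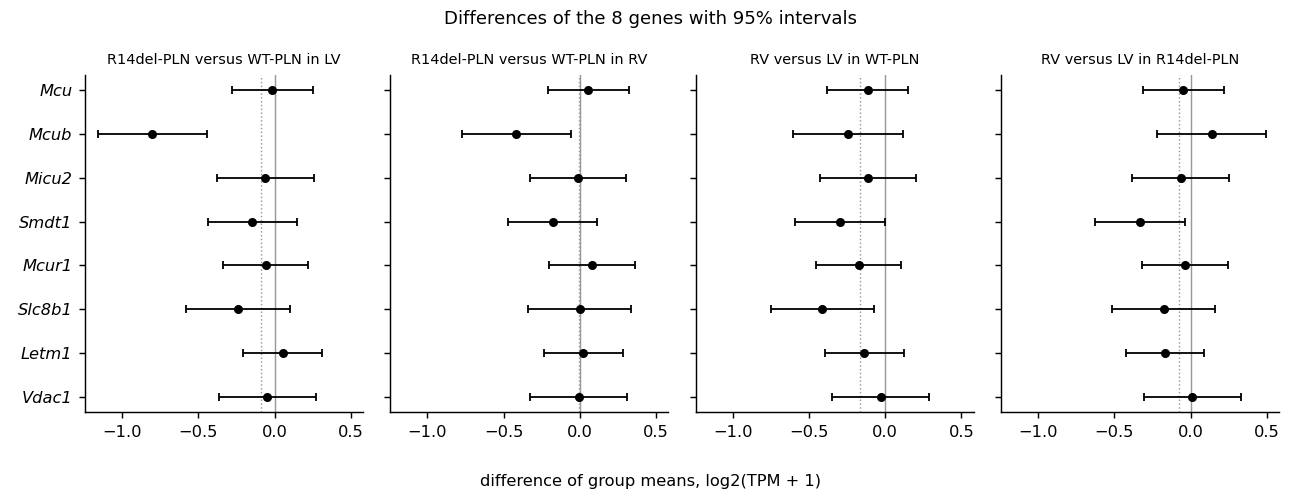
Differences of group means in log2(TPM + 1) for the 8 genes, 1 panel per comparison, as points with 95% intervals from limma. The solid line marks 0 and the dotted line the median of all 12526 tested genes, and Mcub in LV at -0.80 lies farthest from both.

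The second question was whether the ventricles differed within a genotype. Of the 8 genes 0 were called for RV against LV in WT-PLN and 0 in R14del-PLN, where limma called 0 of 12526 tested genes (0.0%) in each comparison and 1811 and 823 genes had an unadjusted p of at most 0.05. In WT-PLN all 8 log2 differences were below 0, as were 85.9% of all tested genes, whose median was -0.17, and the median of the 8 was -0.16. After quantile normalization the median of all genes was 0.01, and the differences of Mcu, Micu2, Mcur1, Letm1 and Vdac1 turned positive (0.02 to 0.17). With LV and RV samples of the same replicate number treated as pairs, 12 genes were called in WT-PLN, and none of them was a member.

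Smdt1 had lower values in RV than in LV in both genotypes, although neither difference passed the adjusted threshold. In WT-PLN the RV range of 88.8 to 105 TPM lay below the LV range of 114 to 125 TPM, with a fold of 0.813 (log2 difference -0.30, unadjusted p = 0.0469, limma adjusted p = 0.340). In R14del-PLN the RV range of 76.8 to 91.5 TPM lay below the LV range of 96.5 to 132 TPM, with a fold of 0.795 (log2 difference -0.33, unadjusted p = 0.0298, limma adjusted p = 0.742). Smdt1 alone of the 8 had ranges that did not overlap between ventricles, in each genotype, where 26.1% of tested genes in WT-PLN and 9.98% in R14del-PLN had such ranges. Without LV R14del-PLN replicate 3 the difference in R14del-PLN was -0.18. The direction was negative in 16 of 16 alternatives in each genotype, with log2 differences from -0.36 to -0.10 in WT-PLN and from -0.41 to -0.17 in R14del-PLN.

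Slc8b1 was 1.84, 2.22 and 1.75 TPM in RV WT-PLN and 2.25, 1.92 and 1.64 TPM in RV R14del-PLN. Its log2 difference from LV was -0.41 in WT-PLN (fold 0.751, unadjusted p = 0.0205, limma adjusted p = 0.299) and -0.18 in R14del-PLN (limma adjusted p = 0.941). The lowest LV and the highest RV sample of WT-PLN were both at 2.22 TPM, so these ranges touched. Without LV WT-PLN replicate 2, the highest sample of the 12, the difference in WT-PLN was -0.26 (limma adjusted p = 0.556). Mcub differed between the ventricles by -0.24 in WT-PLN and by 0.14 in R14del-PLN on the log2 scale, with overlapping ranges and limma adjusted p of 0.465 and 0.972.

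Ratios of subunit transcripts within a sample do not depend on a factor common to all genes of that sample, so Mcub, Smdt1 and Micu2 were each divided by Mcu. The 3 ratios were compared in 4 comparisons with an exact two-sided permutation test of the log2 ratios. With 3 samples against 3 the smallest p such a test can give is 0.1, so none of the 12 tests could pass 0.05, and p-values were adjusted over the 12.

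The Mcub to Mcu ratio was 0.181, 0.239 and 0.351 in LV WT-PLN and 0.0789, 0.0735 and 0.0557 in LV R14del-PLN. The mutant ratios were all below the control ratios and 3.61-fold lower in the mean of the logs (exact permutation p = 0.1, adjusted p = 0.24). In RV the ratio was 0.131, 0.252 and 0.243 in WT-PLN and 0.108, 0.0606 and 0.133 in R14del-PLN. The highest mutant and the lowest control overlapped there, and the mean of the logs was 2.09-fold lower (exact permutation p = 0.2, adjusted p = 0.40).

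The Smdt1 to Mcu ratio was 21.5 ± 0.0801 in LV WT-PLN, 19.2 ± 0.723 in RV WT-PLN, 19.6 ± 1.11 in LV R14del-PLN and 16.3 ± 2.62 in RV R14del-PLN (SD, n = 3 each). The 3 LV WT-PLN samples, at 21.5, 21.4 and 21.5, lay above the highest sample of each other group, and the lowest ratio of the 12 was 13.4 in RV R14del-PLN replicate 2. That sample also stood apart in other genes. Cox5a was 456 TPM there and at least 776 TPM elsewhere, and Cox5b 394 TPM against at least 715 TPM. Myh6 was 8262 TPM there and at most 5802 TPM elsewhere. Whether this bears on its Smdt1 to Mcu ratio was not tested. Ranges did not overlap in any of the 4 comparisons: the ratio was lower in R14del-PLN, with log2 differences of -0.13 in LV and -0.25 in RV, and lower in RV with log2 differences of -0.16 in WT-PLN and -0.28 in R14del-PLN. How often ratios of other genes to Mcu lacked overlap was not counted. No such share therefore stands beside these ratios or beside the Mcub ratio in LV. Each exact permutation p was 0.1, the smallest possible, and each adjusted p 0.24. The 4 comparisons share samples and are not independent of each other. The values for RV R14del-PLN and RV WT-PLN were 18.4, 13.4 and 17.2 and 18.4, 19.8 and 19.4, with the highest mutant and the lowest control nearly equal.

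The Micu2 to Mcu ratio stayed between 6.50 and 7.81 in the 12 samples. Group means were 7.13 ± 0.0929 in LV WT-PLN, 7.26 ± 0.642 in RV WT-PLN, 6.92 ± 0.387 in LV R14del-PLN and 6.88 ± 0.323 in RV R14del-PLN, with overlap in every comparison and exact permutation p of 0.4 or more.

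**Figure D4:**
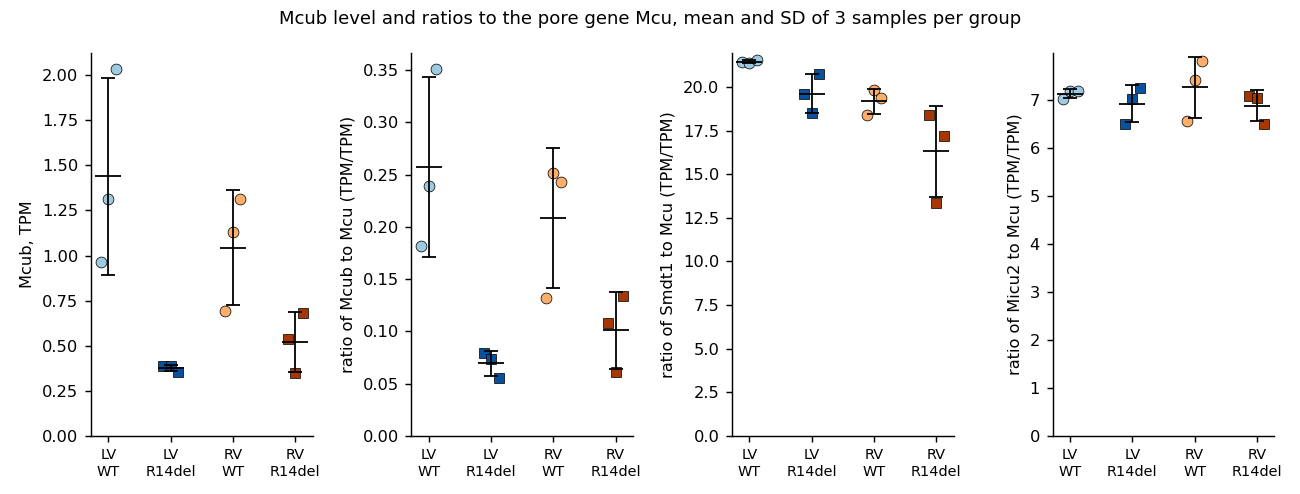
Mcub in TPM and the ratios of Mcub, Smdt1 and Micu2 to Mcu in the 4 groups, with 1 point per sample and the mean and SD of 3 samples, on axes starting at 0. Mcub and its ratio are lowest in LV R14del-PLN, the Smdt1 ratio runs from 21.5 in LV WT-PLN to 16.3 in RV R14del-PLN, and the Micu2 ratio lies near 7 in all groups.

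Which samples held the highest levels of the members changed with the scaling. Of the 8 genes, 6 had their highest TPM in LV R14del-PLN replicate 3, all but Mcub and Slc8b1. When mitochondrially encoded genes were removed and the values rescaled to the same total, none of the 8 was highest in that sample. The coefficient of variation over the 12 samples fell from 9.04% to 6.32% for Mcu, from 11.6% to 6.69% for Micu2 and from 16.2% to 9.28% for Smdt1, but only from 61.9% to 57.6% for Mcub. Pearson correlations of members over the 12 samples, given as a description since the samples share this scaling, fell for Mcu and Smdt1 from 0.57 to -0.33 and for Mcu and Micu2 from 0.88 to 0.64, and Mcu and Mcub were at -0.02 before and -0.27 after.

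**Figure D5:**
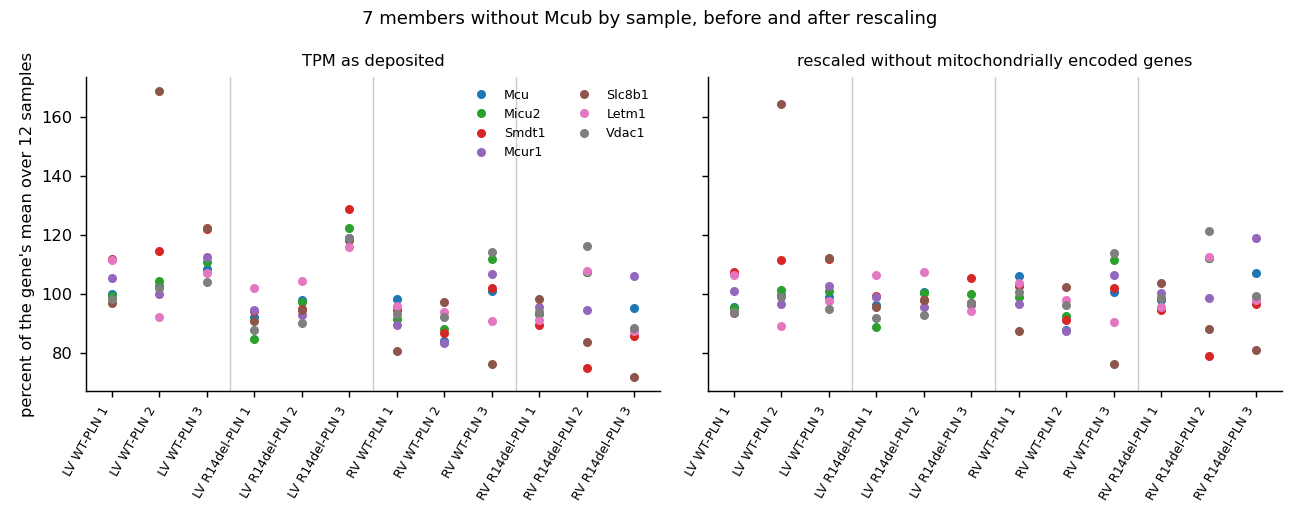
The 7 members other than Mcub in each of the 12 samples, as a percent of the gene's mean over all samples, as deposited on the left and without mitochondrially encoded genes on the right, with lines between the groups. On the left the points of LV R14del-PLN replicate 3 sit together above 100% and on the right they do not.

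The tested genes with the profile most like a member were listed by Pearson correlation of log2(TPM + 1) over the 12 samples, as a description. For Mcu these were Rbm10 (0.96), Wdr36 (0.96), Thumpd3 (0.94), Cirbp (0.94) and Sec23b (0.93). For Mcub these were 1700019D03Rik (0.95), Zfp36 (0.94), Arf4 (0.94), Enc1 (0.94) and Zfp385a (0.94), and their correlations with Mcub were 0.77 to 0.87 once group means were removed.

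Other genes of mitochondrial calcium transport were called in 0 of the 4 comparisons. None of the 16 genes of that list passed, with medians of -0.05 in LV and 0.04 in RV for R14del-PLN against WT-PLN in log2, beside -0.09 and -0.00 for all tested genes. Of all tested genes, 0.519% and 0.271% were called between genotypes in LV and RV, and 0.0% in each comparison of ventricles. Stoml2, a scaffold of the inner membrane, and Letmd1 had their smallest unadjusted p for RV against LV, with log2 differences of -0.25 in R14del-PLN for Stoml2 and -0.25 in WT-PLN for Letmd1 (limma adjusted p = 0.751 and 0.375).

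Genes of contacts between reticulum and mitochondrion (12 tested), calcium-responsive matrix enzymes and carriers (13) and nuclear-encoded mitochondrial proteins (19) also had 0 calls in each of the 4 comparisons. In LV the medians of R14del-PLN minus WT-PLN were -0.07, -0.04 and -0.06 in log2. At most 0.519% of all tested genes were called in any of the 4 comparisons. Of the contact genes, Pacs2 and Fundc1 had log2 differences of -0.30 and -0.34 for RV against LV in WT-PLN, and Rmdn3, a tether protein gene, -0.38 for R14del-PLN against WT-PLN in LV (limma adjusted p = 0.340, 0.414 and 0.624). Ppif, which encodes cyclophilin D of the permeability transition pore, had log2 differences of -0.27 in WT-PLN and -0.31 in R14del-PLN for RV against LV (limma adjusted p = 0.312 and 0.737). Slc25a25 and Slc25a24, calcium-activated ATP-Mg/phosphate carriers, had log2 differences of -0.66 and -0.28 for R14del-PLN against WT-PLN in LV (limma adjusted p = 0.460 and 0.554). For RV against LV in R14del-PLN, the import receptor gene Tomm20, the complex III gene Uqcrfs1 and the complex IV gene Cox5a had differences of -0.40, -0.25 and -0.43 (limma adjusted p = 0.737, 0.751 and 0.767). Each was lowest of its RV R14del-PLN group in replicate 2. Cox5a was 456 TPM in that sample and 932 and 820 TPM in replicates 1 and 3.

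Markers of ventricular cardiomyocytes, atrial cardiomyocytes, fibroblasts, endothelium, macrophages, smooth muscle, red cells and adipocytes gave 0 calls in each comparison. Of all tested genes, at most 0.519% were called in a comparison. In LV the medians of R14del-PLN minus WT-PLN were -0.02 for the ventricular, -2.61 for the atrial, -0.35 for the fibroblast, -0.08 for the endothelial, -0.17 for the macrophage, -0.87 for the smooth muscle, -0.64 for the red cell and -0.41 for the adipocyte list. In RV the medians were 0.02, 0.07, -0.17, 0.01, -0.03, 0.38, -0.62 and 0.29 in the same order, so the fibroblast, macrophage and red cell medians alone had the same sign in both ventricles.

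The atrial values varied widely within groups. The atrial light chain gene Myl7 was 39.4, 0.512 and 299 TPM in LV WT-PLN and 0.190, 0.440 and 0.329 TPM in LV R14del-PLN, and 1.35, 320 and 1.46 TPM in RV WT-PLN. It had its smallest unadjusted p for RV against LV in R14del-PLN (log2 difference 4.73, limma adjusted p = 0.745), Nppa, the natriuretic peptide gene, for RV against LV in WT-PLN (-1.40, adjusted p = 0.340), and Myl4 between genotypes in LV (-2.93, adjusted p = 0.556). The atrial genes Sln and Bmp10 and the brown fat gene Ucp1 were listed at 0 in 1, 2 and 8 of the 12 samples.

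Of the other marker genes with the smallest unadjusted p in their lists, 0 were called. For R14del-PLN against WT-PLN in LV, the collagen genes Col1a1 and Col1a2 and the matrix gene Lum had log2 differences of -0.51, -0.37 and -0.35, the beta-globin gene Hbb-bs -0.62 and the adipokine gene Adipoq -0.58 (limma adjusted p = 0.449, 0.692, 0.646, 0.264 and 0.669). In RV the globin genes Hbb-bt and Hba-a1 had log2 differences of -0.83 and -0.65 (limma adjusted p = 0.245 and 0.294). For RV against LV in WT-PLN, the endothelial genes Tie1 and Pecam1 were at -0.55 and -0.50, the macrophage genes C1qa and Csf1r at -0.39 and -0.30, and the contractile smooth muscle genes Tagln, Myh11 and Cnn1 at -1.44, -1.02 and -1.10, with limma adjusted p of 0.177 to 0.431. In the same comparison the cardiac genes Actc1 and Myl2 were at -0.40 and -0.20 and the fat gene Cidea at -0.26 (limma adjusted p = 0.293, 0.505 and 0.534). In R14del-PLN, RV against LV, the ventricular light chain gene Myl3 was at -0.39 and the lipid droplet gene Plin1 at 0.48 (limma adjusted p = 0.711 and 0.836).

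Genes that overlap or closely resemble the members were looked up in the annotation. Gm10322 overlaps Mcu on the opposite strand and had a mean of 0.0124 TPM. The 11 annotated transcripts with at least 80% identity over 300 bases or more to a member all resembled Vdac1 and summed to 0.0439 TPM, and Mcu and Mcub had none. Smdt1 shares its strand with Pheta2, which is not analysed here, so whether its reads entered the Smdt1 values was not tested.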

How the data were processed

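RNA from LV and RV of WT-PLN and R14del-PLN mice was sequenced from polyA stranded libraries, and the authors deposited 1 table of TPM per sample. The study names CLC Genomics Workbench and GRCm38 for mapping; the program that made the TPM values, and whether counting used strand, are not given in the sources used here. TPM keeps no depth, so no counting error or interval for depth could be given. Groups and replicate numbers came from the sample labels. The study describes 3 mice per genotype, but the labels do not tie samples to animals, so p-values measure the spread between these samples.

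From the deposited TPM, log2(TPM + 1) was fitted, for genes whose mean reached 0.5 TPM, with limma 3.58.1 (R 4.3.3, intensity trend, 4 group means, 8 residual and 5.15 prior degrees of freedom) over all 12 samples. p-values were adjusted by Benjamini-Hochberg over all 12526 genes. Genes called passed an adjusted p of 0.05 and a fold of 1.5. Ratios used exact permutation tests in scipy 1.17.1 (Python 3.11.15), copies BLAST 2.17.0 and positions GENCODE M21. The fit was also run on simulated normal values with added changes. That setting had no floor for low levels, so it does not bear on low genes such as Mcub. The study's own test needs counts and was replaced by limma.

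Named were all members, the 3 genes of each other list with the smallest unadjusted p in any comparison, and the 5 genes most like Mcu and Mcub. A gene that this rule names is not reported here. The leukocyte list, the chromosomal neighbours and the removal of both LV replicate 3 samples were added after values were seen. The members and lists were chosen with earlier results of these data known.

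Same-numbered LV and RV samples are not stated to come from the same mouse. Correlations of their deviations from the group means were 0.66, 0.32 and 0.46 in WT-PLN and 0.39, 0.23 and 0.05 in R14del-PLN. An alternative fit took the numbers to pair the samples in both genotypes, though the correlations were lower in R14del-PLN. The main fit held no term for pairs, so its p-values for RV against LV treat all samples as separate animals. The genotype and interaction p-values do so as well, since they use the spread estimated over all 12 samples. Alternatives were another pseudocount, filter and scaling, the replicate block, groups alone and leaving out samples.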

Additional observations from a re-analysis of the deposited data

How the results depend on the processing

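Without counts, how depth limits the low genes Mcub and Slc8b1 is unknown. The number of members called in LV between genotypes was 1 (Mcub) with a pseudocount of 0.1, quantile normalization, mitochondrially encoded genes removed, the replicate block or both WT-PLN replicate 1 samples removed, and 0 to 1 when 1 sample was left out. It was 0 under the other alternatives, in this and the other comparisons. A filter at 5 TPM removed Mcub and Slc8b1.

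The replicate block, for numbers that pair the genotypes by number only (correlations -0.02, 0.16 and 0.09 in LV and 0.06, 0.22 and 0.13 in RV), moved the calls over all genes from 65 to 119 in LV and from 34 to 62 in RV, and gave Mcub in LV a limma adjusted p of 0.0261. It changed no other member's call. The exact paired test of the ratios cannot go below 0.25. Over all genes, calls in LV ranged from 19 to 231 and in RV from 14 to 88.

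Small differences of members that were not called changed sign with the scaling. With quantile normalization the log2 differences of R14del-PLN from WT-PLN were 0.098 (Mcu), 0.055 (Micu2), 0.060 (Mcur1) and 0.079 (Vdac1) in LV and 0.014 (Micu2) and 0.093 (Vdac1) in RV. Those of RV from LV were 0.060 (Mcu), 0.094 (Micu2), 0.020 (Mcur1), 0.063 (Letm1) and 0.17 (Vdac1) in WT-PLN and 0.023 (Mcu), 0.053 (Micu2) and 0.050 (Mcur1) in R14del-PLN, and that of the log2 ratio of Micu2 to Mcu there was 0.028. With mitochondrially encoded genes removed they were 0.032 (Micu2), 0.031 (Slc8b1) and 0.036 (Vdac1) between genotypes in RV, 0.020 (Micu2) and 0.11 (Vdac1) between ventricles in WT-PLN, and 0.098 (Mcu), 0.096 (Micu2) and 0.12 (Mcur1) in R14del-PLN. Without both LV replicate 3 samples the last were 0.044 (Mcu), 0.075 (Micu2) and 0.066 (Mcur1).

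Leaving out 1 sample at a time changed the sign of further values that were not called. Between genotypes in LV the ranges were -0.11 to 0.051 (Mcu), -0.20 to 0.059 (Micu2), -0.025 to 0.11 (Letm1) and -0.19 to 0.032 (Vdac1). In RV they were -0.015 to 0.097 (Mcu), -0.089 to 0.093 (Micu2), -0.077 to 0.071 (Slc8b1), -0.066 to 0.080 (Letm1) and -0.12 to 0.093 (Vdac1). Between ventricles they were -0.13 to 0.026 (Vdac1) in WT-PLN, and -0.11 to 0.044 (Mcu), -0.18 to 0.075 (Micu2), -0.095 to 0.066 (Mcur1) and -0.11 to 0.15 (Vdac1) in R14del-PLN. The log2 ratio of Micu2 to Mcu differed by values ranging from -0.079 to 0.00056 between genotypes in LV, from -0.033 to 0.094 between ventricles in WT-PLN and from -0.054 to 0.030 in R14del-PLN. The cause of these sign changes was not tested. The genotype differences of Mcub and the 4 differences of Smdt1 kept their sign in every alternative run.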
